A study of Oryza sativa with 12 samples.

Results

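H2B.10, H2B.7 and H2B.11 are 3 of the 10 rice genes that the RefSeq annotation (assembly ASM3414082v1) names as histone H2B, and 3 of the 5 that have a probe set matched to 1 gene on the array. They were chosen by symbol, on measured values: an earlier look at the same 12 arrays had placed these 3, and no other H2B gene, past the threshold for a drought difference in osnox2 leaves. The drought differences of the 3 genes are therefore given as a description, without a test. Each gene has 1 probe set, and all 3 probe sets passed the filter on low signal, among 15392 genes with a kept probe set and 17905 with any probe set matched to 1 gene.

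The youngest fully expanded leaves of greenhouse-grown rice (cultivar Dongjin) aged 2.5 months were hybridised to Affymetrix rice arrays in 4 groups of 3 arrays each. These were the T-DNA insertion mutant osnox2 on day 15 of drought (soil moisture 8.5% ± 2.1) and on day 0 (control, 47.3% ± 1.9), and wild type (WT) on the same 2 days with the same soil moistures. Mutant and WT plants shared pots. The labels give 1 mutant genotype and no complemented line, and every drought array was also a later harvest, so drought and day of harvest cannot be told apart.

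Histone H2B pairs with H2A, and these dimers join H3 and H4 in the nucleosome, the particle that DNA wraps around. Plants carry several H2B genes whose proteins are much alike. Most core histone mRNA is made while DNA replicates, so histone transcripts are abundant in dividing tissue, while some histone genes stay active in cells that no longer divide. A fully expanded leaf blade holds mostly cells of that second kind.

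H2B.10 (LOC4324495, chromosome 1, 2828067 to 2828788) and H2B.7 (LOC4324500, chromosome 1, 2852539 to 2853296) belong to a run of 6 H2B genes, H2B.3, H2B.4, H2B.10, H2B.7, H2B.6 and H2B.5, that spans 198591 bp. H2B.10 lies 132.4 kb beyond H2B.4, and the last 4 genes of the run, H2B.10 to H2B.5, fit in 52.9 kb. H2B.11 (LOC4327384, 36638941 to 36639781) lies on the same chromosome, 33.76 Mb further along. H2B.6 (LOC4324502, 2865408 to 2866222) and H2B.5 (LOC4324504, 2880218 to 2880965) were the other H2B genes with a probe set. H2B.3, H2B.4, H2B1, H2B.9 and H2B.2 had none matched to 1 gene and were not analysed here. H2B.7 lies inside LOC4324499 (2847856 to 2853299), whose own probe set read between 0.00 and 5.20 and did not pass the filter. Because H2B genes are much alike, each probe set may also take up transcripts of other copies, and the suffix of the H2B.7 probe set (x_at) marks, in the maker's naming, probes that can match other sequences. How far the 5 probe sets read the same transcripts was not tested.

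Values are log2 MAS5 signals as the authors deposited them, and a call is an adjusted p under 0.05 in limma over 32012 kept probe sets. On 3 control arrays, osnox2 control replicates 1 and 2 and WT control replicate 1, the clock gene LHY read 13.51 to 13.79, against 7.31 to 8.99 on the other 9 arrays. The correlation of these 3 with the other 9 over kept probe sets was 0.868 to 0.895, against 0.918 to 0.959 among the 9, so each comparison is given with and without them. Without them osnox2 control keeps 1 array and WT control 2, and the spread of that single array is taken to equal that of the other groups. The leaf markers CAB2R, RBCS and RCAA1 read 13.11 to 15.69 on all arrays, while the fourth, RBCS1, read 0.93 to 5.93. Of 7 seed storage genes 2 passed the filter, GLUA-2 (9.68 to 10.81) and GLUB-5 (5.49 to 6.66), and the root markers had no matched probe set. The search by symbol for pollen markers found 1 gene with a probe set, MSP1, which read 7.45 to 8.62. Whether MSP1 marks pollen was not tested. The gene disrupted in osnox2 was not analysed here.

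H2B.10 gave the largest drought difference of the 3 genes in osnox2. Its log2 signal was 12.003, 12.11 and 12.13 in osnox2 drought leaves, against 10.94, 11.18 and 11.23 in osnox2 control leaves. In WT it was 11.39, 11.52 and 11.58 in drought leaves, against 11.23, 11.28 and 10.92 in control leaves. The 3 osnox2 drought arrays were the highest of the 12, the 3 WT drought arrays came next, and the 6 control arrays of both genotypes were mixed below them. H2B.10 was higher in drought than in control leaves by 0.96 ± 0.13 (SE) in osnox2, which is 1.95-fold, and by 0.35 ± 0.13 in WT, which is 1.28-fold. Without the 3 control arrays that stood apart these differences were 0.85 ± 0.15 in osnox2 and 0.40 ± 0.12 in WT.

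H2B.7 read 13.12, 13.45 and 13.44 in osnox2 drought leaves, against 12.47, 12.60 and 12.85 in osnox2 control leaves. It read 12.92, 12.99 and 13.13 in WT drought leaves, against 12.86, 12.87 and 12.82 in WT control leaves. Drought and control arrays did not overlap in either genotype, but in WT the gap between the highest control array and the lowest drought array was narrow. The drought difference was 0.69 ± 0.13 in osnox2 (1.62-fold) and 0.16 ± 0.13 in WT (1.12-fold). The osnox2 value leaned on the arrays that stood apart, since osnox2 control replicates 1 and 2 were the lowest of the 12 arrays for this gene: without the 3 arrays it was 0.49 ± 0.15, against 0.17 ± 0.12 in WT.

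H2B.11, away from the cluster, read 12.95, 13.22 and 13.30 in osnox2 drought leaves, against 12.41, 12.50 and 12.52 in osnox2 control leaves. It read 12.78, 12.87 and 12.90 in WT drought leaves, against 12.35, 12.59 and 12.68 in WT control leaves. As with H2B.10, the 3 osnox2 drought arrays were the highest, followed by the 3 WT drought arrays and then all 6 control arrays. The drought difference was 0.68 ± 0.12 in osnox2 (1.61-fold) and 0.31 ± 0.12 in WT (1.24-fold). It was 0.64 ± 0.14 and 0.21 ± 0.11 in the same genotypes without the 3 arrays.

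**Figure D1:**
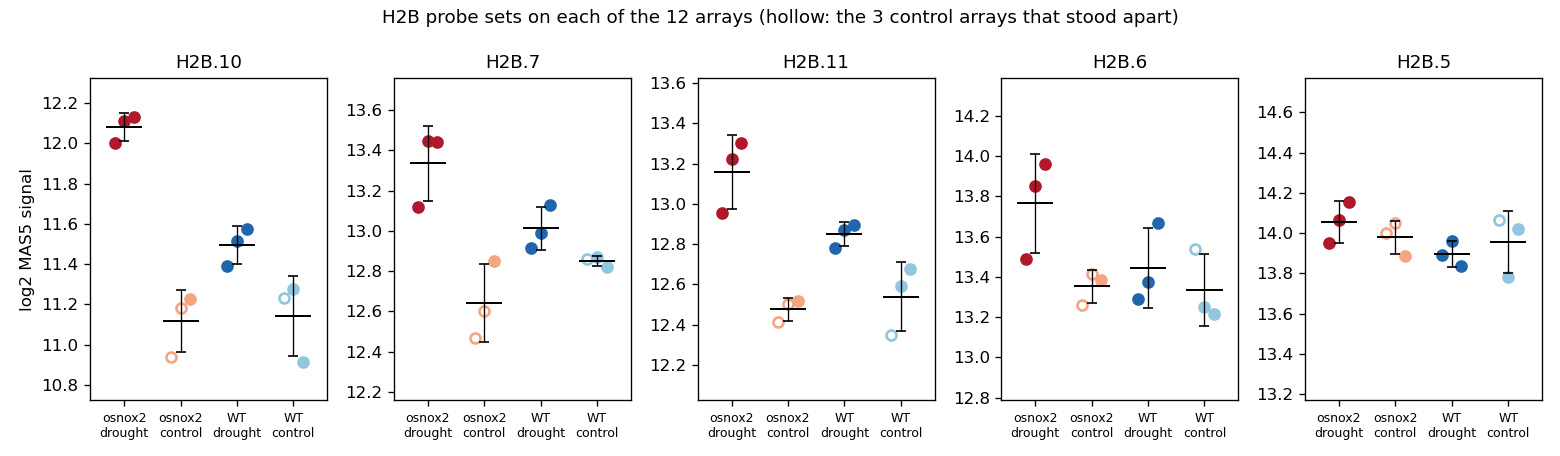
Log2 MAS5 signal (vertical axis, each panel spanning the same range of log2 units) of the 5 H2B probe sets on each array, by group. Points are arrays, hollow points the 3 control arrays that stood apart, bars the group means and whiskers the SD (n = 3). For H2B.10, H2B.7 and H2B.11 the drought arrays lie above the control arrays of the same genotype, while the H2B.5 groups overlap.

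The groups of all 3 genes did not overlap in osnox2, drought being higher, where 14.5% of kept probe sets showed such a gap in that direction. In WT the same held for all 3, where 9.92% did. All 3 were called higher under drought in osnox2, which is how they came to be chosen, among 0.291% of probe sets called higher there. None of the 3 was called in WT, where 0.0843% were called higher. The osnox2 calls lay close to the threshold. Leaving out osnox2 control replicate 1 or 2, or any 1 of the 3 osnox2 drought arrays, left 0 of the 3 genes past it. The array as a whole lost most calls there too: 4 to 6 of 32012 probe sets were called higher, against 93 with all 12 arrays. Without WT control replicate 2 or 3, or without any 1 WT drought array, H2B.10 alone was past it. There 30 to 71 probe sets were called higher. Leaving out WT control replicate 1 or osnox2 control replicate 3 kept all 3, where 501 and 3494 were called higher. With single arrays left out, the number of the 3 genes called thus rose and fell with the calls over the whole array. Without the 3 arrays that stood apart H2B.10 alone was past it, where 1.07% of probe sets were called higher in osnox2, and still none in WT, where 1.52% were. With all 12 arrays but each array centred on its median, with no filter on low signal, or with no intensity trend, H2B.10 alone was called, and 0 of the 3 were when only the 2 osnox2 groups entered the fit. Probe sets called higher in osnox2 then numbered 82 with centring, 59 of 57194 with no filter, 40 with no trend, and 4 with only the 2 osnox2 groups. With 1 array left out the osnox2 difference lay between 0.88 and 1.02 for H2B.10, 0.61 and 0.80 for H2B.7, and 0.61 and 0.79 for H2B.11. The smaller WT differences moved by a larger factor, H2B.7 lying between 0.10 (without WT drought replicate 3) and 0.21 (without WT drought replicate 1).

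Among the 15392 genes with a kept probe set, the median drought difference was 0.11 in osnox2 and 0.04 in WT, and the 3 genes lay above both medians. In osnox2, 10.5% of the genes had a larger difference than H2B.10, 16.1% a larger one than H2B.7 and 16.4% a larger one than H2B.11. In WT these shares were 21.8% for H2B.10, 36.4% for H2B.7 and 24.4% for H2B.11. Genes with larger drought differences were thus common. The residual SD within groups was 0.14 for H2B.10, 0.15 for H2B.7 and 0.13 for H2B.11. For the H2B genes not chosen it was 0.11 (H2B.5) and 0.19 (H2B.6). These spreads were not compared with those of all genes.

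The drought difference was wider in osnox2 than in WT by 0.61 ± 0.18 for H2B.10, 0.53 ± 0.18 for H2B.7 and 0.37 ± 0.17 for H2B.11, given as values without a test since the choice of the genes used both contrasts. Without the 3 arrays these gaps between genotypes were 0.45 ± 0.19, 0.32 ± 0.19 and 0.43 ± 0.18 for the same genes. All 3 kept their sign. The gap for H2B.7 narrowed most.

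The genotypes were also compared within each condition, contrasts that did not choose the genes but share their arrays with the drought contrasts. Choosing genes higher in drought than in control osnox2 leaves favours high osnox2 drought values and low osnox2 control values. The difference under drought may therefore be overstated, and that in control leaves pulled down. The p-values, intervals and group gaps make no allowance for this choice. Under drought the 3 genes read higher in osnox2 than in WT leaves, and none passed the test. H2B.10 averaged 12.08 ± 0.07 in osnox2 drought leaves and 11.50 ± 0.09 in WT drought leaves (SD, n = 3 each), a difference of 0.59 ± 0.13 (SE), or 1.50-fold, with a limma adjusted p of 0.239. The 95% interval of that difference was 0.31 to 0.87, before any allowance for the number of probe sets tested. H2B.7 averaged 13.34 ± 0.19 in osnox2 drought leaves and 13.01 ± 0.11 in WT drought leaves (difference 0.32 ± 0.13, limma adjusted p = 0.875). H2B.11 averaged 13.16 ± 0.18 in osnox2 drought leaves and 12.85 ± 0.06 in WT drought leaves (difference 0.31 ± 0.12, limma adjusted p = 0.854). For H2B.10 and H2B.11 every osnox2 drought array lay above every WT drought array, a gap that 8.26% of kept probe sets showed in that direction, and for H2B.7 the lowest osnox2 array fell among the WT arrays. With 0 of 3 genes called, the share of all probe sets called in this contrast was 0.103% in either direction. Leaving out the 3 control arrays changed only the estimate of spread here: the limma adjusted p for H2B.10 became 0.0649, for H2B.11 0.253 and for H2B.7 0.261, again 0 of 3, where 0.59% were called.

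In control leaves none of the 3 genes passed the test between genotypes. H2B.10 averaged 11.12 ± 0.16 in osnox2 control leaves and 11.14 ± 0.20 in WT control leaves (SD, n = 3 each), a difference of -0.02 with a 95% interval of -0.31 to 0.26 (limma adjusted p = 0.969). For H2B.7 the difference was -0.21 (95% interval -0.49 to 0.07, limma adjusted p = 0.758) and for H2B.11 -0.06 (-0.32 to 0.20, limma adjusted p = 0.902). A p that misses the threshold does not show that the genotypes were alike, and the intervals give the sizes these arrays allow. Of all probe sets 0.131% were called in this contrast, and 0.275% without the 3 arrays. Without them H2B.10 was at 0.13 ± 0.16, H2B.7 at 0.01 ± 0.16 and H2B.11 at -0.12 ± 0.15, so the first 2 turned sign.

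**Figure D2:**
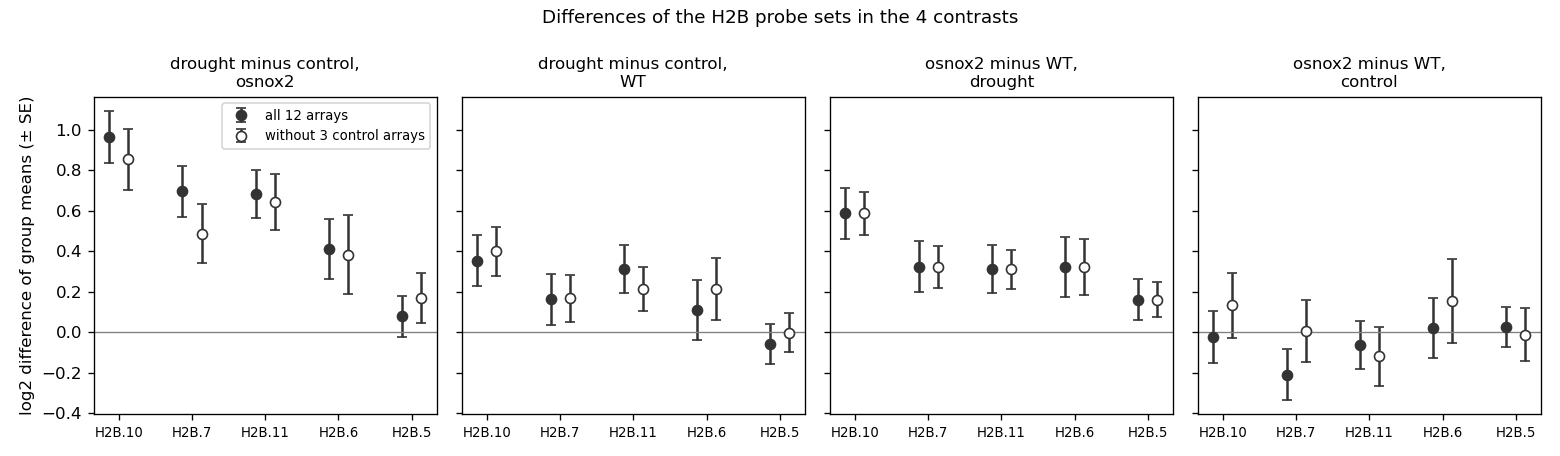
Log2 difference of group means (vertical axis) ± SE for the 5 H2B probe sets in the 4 contrasts, with all 12 arrays (filled) and without the 3 control arrays that stood apart (hollow). In osnox2 the drought differences run from 0.96 for H2B.10 to 0.08 for H2B.5, and in control leaves the genotype differences lie around 0.

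The other H2B genes with a probe set stood on either side of this pattern. H2B.6 read 13.49, 13.85 and 13.96 in osnox2 drought leaves, against 13.26, 13.41 and 13.38 in osnox2 control leaves, and 13.29, 13.37 and 13.67 in WT drought leaves, against 13.54, 13.25 and 13.21 in WT control leaves. Its osnox2 drought arrays all lay above the osnox2 control arrays, while its WT groups overlapped. The drought difference of H2B.6 was 0.41 ± 0.15 in osnox2 (limma adjusted p = 0.204) and 0.11 ± 0.15 in WT (limma adjusted p = 0.847). It was the H2B gene next below the 3 chosen ones, of which H2B.11 had the smallest osnox2 difference (0.68). H2B.6 was, without the 3 arrays that stood apart, at 0.38 ± 0.19 in osnox2 (limma adjusted p = 0.428) and 0.21 ± 0.15 in WT (limma adjusted p = 0.515). H2B.5, at the end of the run, read 13.95 to 14.16 in osnox2 drought leaves against 13.89 to 14.05 in osnox2 control leaves, and 13.84 to 13.96 in WT drought leaves against 13.78 to 14.07 in WT control leaves. Its groups overlapped in both genotypes, with differences of 0.08 ± 0.10 in osnox2 (limma adjusted p = 0.715) and -0.06 ± 0.10 in WT (limma adjusted p = 0.885), and of 0.17 ± 0.12 in osnox2 (limma adjusted p = 0.598) and -0.0041 ± 0.10 in WT (limma adjusted p = 0.989) without the 3 arrays. That H2B.5 differed from its neighbours in its response was not tested, since the neighbours were chosen for theirs.

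Within the run, the drought difference in osnox2 was 0.96 for H2B.10, 0.69 for H2B.7, 0.41 for H2B.6 and 0.08 for H2B.5, which is also their order along the chromosome. In WT the order of the values was the same with all 12 arrays, from 0.35 for H2B.10 to -0.06 for H2B.5, but not without the 3 arrays, where H2B.6 (0.21) lay above H2B.7 (0.17). In osnox2 the order held without them. The order was not tested and rests on 4 genes, of which 2 were chosen for their difference. It is also the reverse of their order by signal level. Mean signals in osnox2 control leaves were 11.12 for H2B.10, 12.64 for H2B.7, 13.35 for H2B.6 and 13.98 for H2B.5. Whether the order goes with position or with signal level was not tested. Of 32 other annotated genes between H2B.3 and H2B.5, 12 had a kept probe set, and 0 of these were called in either genotype, with 1 at an unadjusted p under 0.05 in osnox2 and 1 in WT (8.33% in each, against 22.0% and 13.2% of all genes). All 12 lie between 2701117 and 2822999, before the start of H2B.10, so none lies among the 4 H2B genes of this order. Their median drought difference was -0.22 in osnox2 and -0.01 in WT, against 0.11 and 0.04 over all genes in the same genotypes. Without the 3 arrays the neighbours' median was 0.03 in osnox2 and -0.07 in WT, and 1 of them, LOC4324522, was called higher in WT (0.96 ± 0.17, limma adjusted p = 0.0251).

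**Figure D3:**
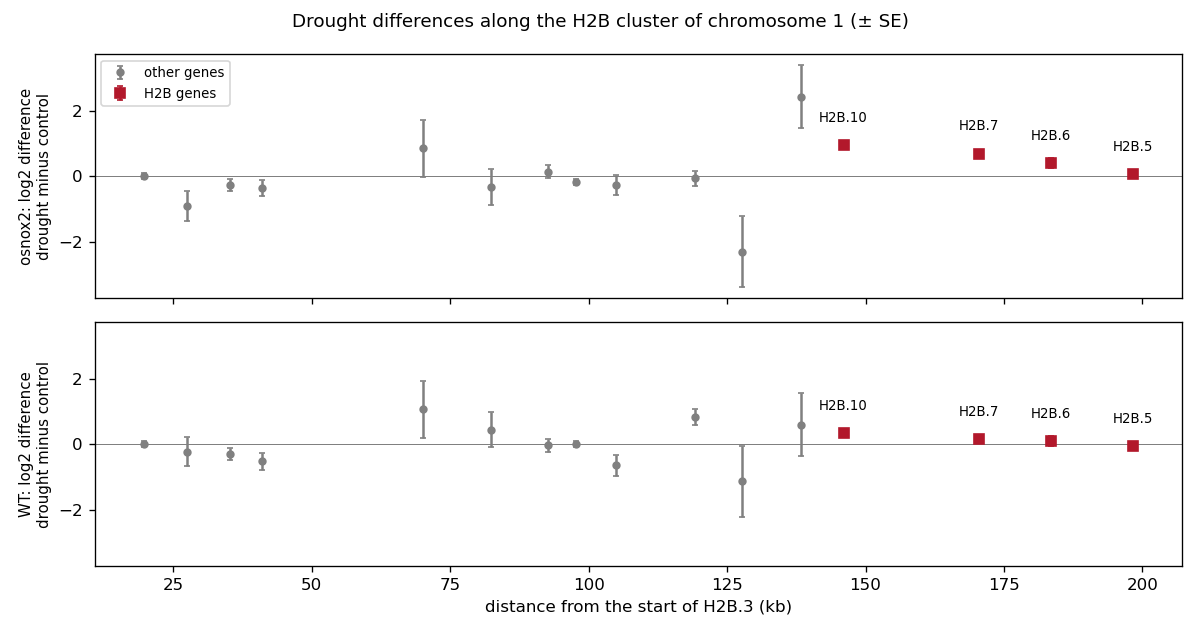
Log2 drought minus control difference ± SE (vertical axis) against distance from the start of H2B.3 in kb (horizontal axis), in osnox2 (above) and WT (below). Squares are the 4 H2B genes with a probe set and circles the 12 other genes with a kept probe set, all of which lie before H2B.10. The H2B values step down from H2B.10 to H2B.5, in both panels with all 12 arrays, while the other genes scatter on both sides of 0. The mean signals of the 4 H2B genes in control leaves rise in the same order.

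The 12-array profiles of the 3 genes are compared as a description, since the genes were chosen for a shared drought difference on these arrays and part of their closeness follows from that choice. The distance used was the root mean square difference of log2 values after each probe set's own mean was taken off, which compares shapes and not levels. It was 0.120 between H2B.7 and H2B.11, which lie far apart on chromosome 1, and of 15391 genes 1 lay closer to H2B.7 and 3 lay closer to H2B.11 than that. H2B.10 was 0.189 from H2B.7 and 0.197 from H2B.11, with 4 and 6 genes closer to H2B.10 than these. In the other direction, 176 genes lay closer to H2B.7 than H2B.10 did, and 156 lay closer to H2B.11. H2B.6 was 0.157 from H2B.7, with 30 genes closer. It was 0.252 from H2B.10, with 63 genes closer, and 0.200 from H2B.11, with 185 closer. H2B.5 was 0.276 from H2B.7, 0.284 from H2B.11 and 0.392 from H2B.10, with between 2392 and 2927 genes closer, and these distances were near the genes' own spread around their means (0.280 for H2B.7, 0.293 for H2B.11 and 0.406 for H2B.10). All these distances come from the same 12 arrays, and probe sets that share transcripts would also lie close.

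Of named genes other than the 3, the nearest to H2B.10 was 6PGDH2 (0.157), which codes for a 6-phosphogluconate dehydrogenase of the oxidative pentose phosphate pathway, followed by MRL7L (0.230) and OsCASPL5B2 (0.243). The nearest to H2B.7 were OC-XII (0.134), a cystatin that inhibits cysteine proteases, then H2B.6 (0.157) and AD709 (0.158). OC-XII was also the nearest to H2B.11 (0.142), followed by Glup3 (0.156), a vacuolar processing enzyme, and MRL7L (0.160). H2B.6 was thus the only histone gene among the 9 places.

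Genes of DNA replication, the cell cycle and histone handling gave the setting for the H2B values. Of 30 replication genes with a probe set (the PCNA clamp, MCM helicase and origin recognition subunits, polymerases and others) 23 were kept, and 0 were called in osnox2 or WT, in either direction, where 0.241% of all probe sets were called lower in osnox2 and 0.0469% in WT. At an unadjusted p under 0.05 there were 6 in osnox2 (26.1%) and 3 in WT (13.04%), against 22.0% and 13.2% of all genes in the same genotypes. Their median drought difference was 0.22 in osnox2, with 20 of 23 above 0, and 0.11 in WT, with 17 of 23 above 0, against 61.2% and 54.9% of all genes above 0. Without the 3 arrays the medians were 0.06 in osnox2 and 0.05 in WT, with 14 of 23 above 0 in each. Of 18 kept cell cycle genes 0 were called, 5 in osnox2 (27.8%) and 3 in WT (16.7%) had an unadjusted p under 0.05, and the medians were 0.01 in osnox2 and 0.08 in WT, or 0.02 and -0.15 without the 3 arrays. Of 7 histone chaperones and modifying enzymes 0 were called, 2 in osnox2 (28.6%) and 0 in WT had an unadjusted p under 0.05, and the medians were 0.11 in osnox2 and -0.02 in WT, or 0.14 and 0.08 without the 3 arrays. With CENH3, H2B.6 and H2B.5 these lists held 51 kept genes.

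The count for the lists changed with single control arrays. Leaving out osnox2 control replicate 3, so that only arrays that stood apart represent osnox2 control leaves, brought 13 of the 51 genes past the threshold in osnox2, 6 of them replication genes, and neither H2B.6 nor H2B.5. The same omission raised the calls over the whole array, to 10.9% of probe sets called higher and 6.28% called lower in osnox2. Among these were ORC4, a subunit of the origin recognition complex (2.89 ± 0.40, limma adjusted p = 0.00326), FAS2, a subunit of the chromatin assembly factor CAF-1 (1.18 ± 0.19, limma adjusted p = 0.00511), and CENH3 (1.42 ± 0.31, limma adjusted p = 0.0165). Of the 13, 12 were higher under drought, and HUB2, which in Arabidopsis is part of the ligase that attaches ubiquitin to H2B, was lower (-0.48 ± 0.14, limma adjusted p = 0.0392). Leaving out WT control replicate 1 brought 1, the helicase subunit MCM6 (3.32 ± 0.68, limma adjusted p = 0.0386), where 1.57% of probe sets were called higher.

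Without the 3 arrays 2 cell cycle genes were called, both cyclin-dependent kinase inhibitors that hold back the cell cycle. KRP1 fell in WT by 0.42 ± 0.08 (limma adjusted p = 0.0368), where 1.45% of probe sets were called lower, and stood at 0.03 ± 0.10 in osnox2. KRP6 rose in osnox2, by 3.43 ± 0.56, a value that rests on a single osnox2 control array. It also rose in WT, by 1.145. Under drought KRP6 differed by -1.295 between osnox2 and WT, being lower in osnox2. No gene of these lists was called lower in osnox2, where 0.375% of probe sets were. With all 12 arrays KRP1 was at -0.36 ± 0.12 in WT (limma adjusted p = 0.288) and KRP6 at 2.59 ± 0.73 in osnox2 (limma adjusted p = 0.136).

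**Figure D4:**
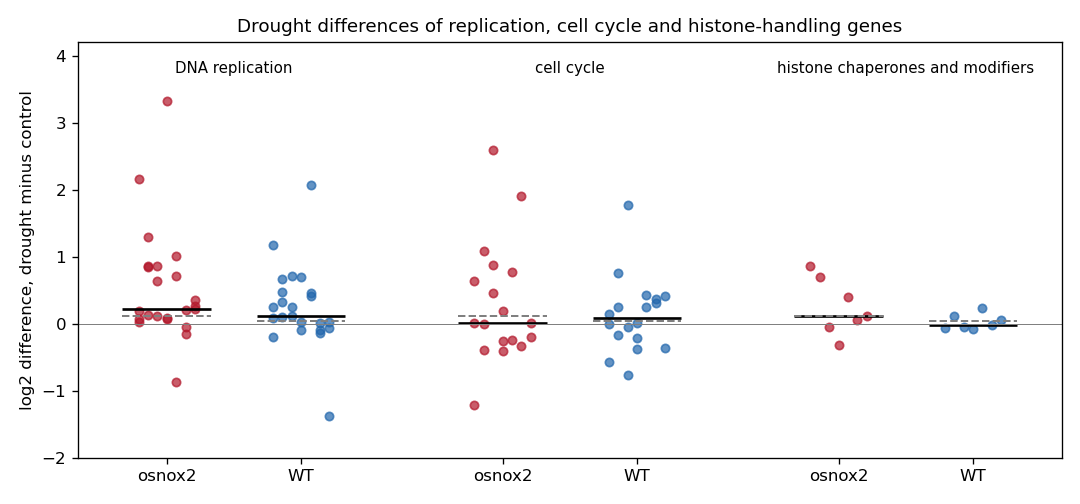
Log2 drought minus control difference (vertical axis) of kept genes of DNA replication (23), the cell cycle (18) and histone chaperones and modifiers (7), in osnox2 and WT, with all 12 arrays. Points are genes, solid bars list medians and dashed bars the median of all genes (0.11 in osnox2, 0.04 in WT), with the replication median in osnox2 at 0.22.

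Markers of dividing cells were read on the same arrays, since in RNA of whole leaves more cells of a kind and more RNA per cell cannot be told apart. Of 7 meristem and dividing-cell genes 2 were kept, PCNA and the kinase CDKB2-1 (1.31 to 6.33), while the meristem gene OSH1 (0.09 to 5.23) and 4 B-type cyclin genes (0.00 to 5.55) did not pass the filter. The log2 of the summed signal of the 7 was 10.37 to 10.69 in osnox2 drought leaves, against 9.75 to 10.38 in osnox2 control leaves, and 10.33 to 10.57 in WT drought leaves, against 9.75 to 10.47 in WT control leaves. These sums were mostly PCNA. The log2 of the summed signal of the 4 leaf genes was 16.02 to 16.16 in osnox2 drought leaves, against 15.97 to 16.99 in osnox2 control leaves, and 16.08 to 16.21 in WT drought leaves, against 15.92 to 16.68 in WT control leaves.

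PCNA and CENH3, the H3 variant of centromeres and the 1 other histone with a matched probe set, split the control arrays by a wider gap than the H2B genes. PCNA read 9.49 to 9.56 on the 3 control arrays that stood apart, against 10.23 to 10.34 on the other 3 control arrays, and CENH3 read 6.77 to 6.89, against 7.77 to 7.93. H2B.10 read 10.94 to 11.23 on the same 3 arrays, against 10.92 to 11.28 on the other control arrays, with means of 11.12 and 11.14. For H2B.7 the ranges were 12.47 to 12.86 against 12.82 to 12.87, with means of 12.64 and 12.85. For H2B.11 they were 12.35 to 12.50 against 12.52 to 12.68, with means of 12.42 and 12.60. The means of H2B.7 and H2B.11 were thus lower on the 3 arrays, the direction seen for PCNA and CENH3. H2B.10 and H2B.7 thus overlapped between the 2 sets of control arrays, and H2B.11 was lower on the 3 arrays by a narrow gap.

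The drought differences of PCNA and CENH3 were smaller when the 3 arrays were left out. PCNA was at 0.64 ± 0.25 in osnox2 with all 12 arrays (limma adjusted p = 0.220) and at 0.16 ± 0.16 without the 3 (limma adjusted p = 0.722). CENH3 was at 1.09 ± 0.34 in osnox2 with all 12 (limma adjusted p = 0.164) and at 0.43 ± 0.25 without the 3 (limma adjusted p = 0.480). Without them H2B.10 was at 0.85 and H2B.11 at 0.64, against 0.96 and 0.68 with all 12, while H2B.7 also shrank, to 0.49 against 0.69. On the 1 osnox2 control array outside the 3, PCNA read 10.23, against 10.25 to 10.59 in osnox2 drought leaves. CENH3 read 7.77 there, against 8.04 to 8.48 in osnox2 drought leaves, and H2B.10 read 11.23, against 12.003 to 12.13. CENH3 and H2B.10 thus lay below all osnox2 drought arrays by a wider gap than PCNA. Without the 3 arrays the 23 replication genes ran from -0.82 to 2.55 in osnox2, so PCNA does not stand for all of them. Under drought, PCNA differed between osnox2 and WT by 0.08 ± 0.25 (limma adjusted p = 0.9999) and CENH3 by 0.09 ± 0.34 (limma adjusted p = 0.9999). In the same contrast H2B.10 was at 0.59 ± 0.13 (limma adjusted p = 0.239), H2B.7 at 0.32 ± 0.13 and H2B.11 at 0.31 ± 0.12, none of them called. The 23 replication genes ran from -0.60 to 1.59 there, also with none called, so PCNA does not stand for them in this contrast either.

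**Figure D5:**
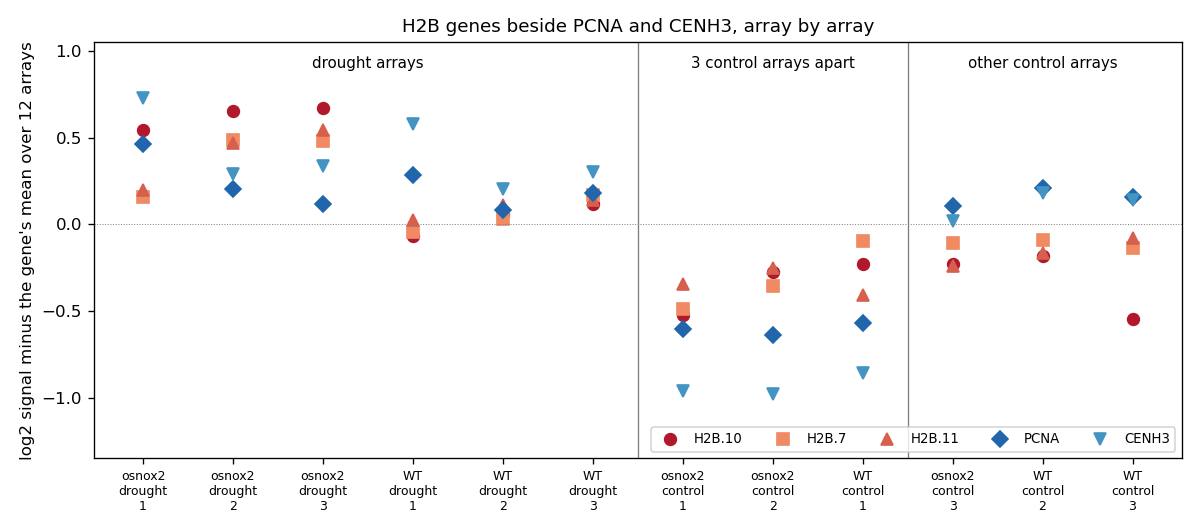
Log2 signal minus each gene's mean over the 12 arrays (vertical axis) for H2B.10, H2B.7, H2B.11, PCNA and CENH3 on every array (horizontal axis). PCNA and CENH3 are low on the 3 control arrays that stood apart and closer to their drought levels on the other 3, while H2B.10 is low on all 6 control arrays and highest on the 3 osnox2 drought arrays.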

How the data were processed

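RNA of 12 leaf samples was measured on Affymetrix rice arrays. The deposited table holds log2 signals of 57258 probe sets, which the authors made with MAS5, per the submitters' processing notes (version not given in the sources used here). With the log undone, the mean of each array without the lowest and highest 2% was 497 to 498, and values were used without further normalization. No detection calls were used.

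The 64 reporter probe sets were left out, and a probe set was kept where 3 or more of the 12 arrays had it above that array's median, which left 32012. Probe sets were named through the accessions of the RefSeq annotation ASM3414082v1: 22436 matched 1 gene, 95 several and 34663 none. A gene of a list with several probe sets was read from the one with the highest mean. A linear model of the 4 group means on all 12 arrays was fitted with limma 3.58.1 in R 4.3.3 (lmFit, eBayes with an intensity trend, two-sided), with Benjamini-Hochberg adjustment over kept probe sets and calls at an adjusted p under 0.05. The code was tested on simulated data. The number of arrays limits the precision. The p-values measure the spread between samples labelled as biological replicates.

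The genes, the lists and the markers were chosen with earlier results of these data known. Named genes were every H2B gene with a probe set, up to 4 called genes of each list, and for each of the 3 genes the 3 named genes of nearest profile; PCNA, CENH3, LOC4324522 and the genes named as called with 1 array left out were added after their values were seen. Whether replicate numbers paired the arrays was not settled: deviations of same-numbered arrays correlated between -0.251 and 0.368, and those of other arrays between -0.491 and 0.368. Between osnox2 and WT drought arrays of the same number the correlations were 0.123, -0.066 and 0.139 for replicates 1, 2 and 3. Alternatives were 2 offsets before the log, centring, quantile normalization, other filters, no trend, only the groups compared, a term for the 3 arrays or their omission, each array left out, and the replicate block. Protein and promoter sequences were not analysed here.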

Additional observations from a re-analysis of the deposited data

How the results depend on the processing

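Of the drought differences of the 3 H2B genes, none changed direction under any alternative run, and 1, H2B.7 in osnox2, moved by more than the spread between replicates, to 0.49 without the 3 arrays that stood apart. Leaving out each array in turn gave in osnox2 0.88 to 1.02 for H2B.10, 0.61 to 0.80 for H2B.7 and 0.61 to 0.79 for H2B.11, and in WT 0.24 to 0.42, 0.10 to 0.21 and 0.21 to 0.38 for the same genes. The genotype difference under drought was 0.54 to 0.63 for H2B.10, 0.27 to 0.43 for H2B.7 and 0.24 to 0.41 for H2B.11, with 0 of 3 genes called under every alternative. The genotype difference in control leaves had no settled sign. It was -0.14 to 0.06 for H2B.10, -0.31 to -0.12 for H2B.7 and -0.16 to 0.01 for H2B.11 with each array left out (H2B.10 being 0.02, 0.04 and 0.0638 without WT control replicate 1, WT control replicate 2 and osnox2 control replicate 1), and H2B.11 was 0.0065 without WT control replicate 3 and H2B.10 turned to 0.0098 with arrays centred on their medians. Without the 3 arrays H2B.10 stood at 0.13 and H2B.7 at 0.0051. The number of histone, replication, cell cycle and chaperone genes called, 0 in each contrast with all arrays, became 1 in WT drought and 1 in osnox2 drought without the 3 arrays, 0 to 13 in osnox2 drought and 0 to 1 between genotypes in control leaves with each array left out, and 0 otherwise; the cause was not tested. With the replicate block the differences were unchanged, such as 0.59 ± 0.13 for H2B.10 between genotypes under drought (limma adjusted p = 0.332), and 0 of 3 genes were called between genotypes; 6 of 12 arrays correlated best with an array of their own number. Since each of the 3 genes has 1 probe set, averaging the probe sets of a gene gave no other value. With 3 arrays a group, probe sets that may share transcripts, and 1 osnox2 control array outside the 3, small differences between the H2B genes cannot be resolved.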
